A study of Mus musculus with 16 samples.

Results

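The difference in housing response between 2 regions of the fetal mouse brain was measured as a single contrast of RNA levels. It is the hippocampus difference, enriched environment (EE) minus standard habitation (SH), minus the same difference in cortex, called the tissue contrast here. A positive tissue contrast means that the EE minus SH difference was more positive in hippocampus than in cortex. The series holds 16 RNA-seq libraries, of which 12 enter: replicates 1 to 3 of cortex EE, cortex SH, hippocampus EE and hippocampus SH. Cortex replicates 4 and 5 have no hippocampal counterpart and enter only an alternative fit. All groups were WT brain at embryonic day 18.5, and the series title places the enrichment before birth. The labels give no strain, fetus or litter, so p-values here speak of the spread among these libraries, part of which may be technical. Of 16250 genes listed in any file, 14993 are listed in all 12, and 13158 of these, with a mean of at least 1 FPKM, were tested. FPKM counts fragments relative to transcript length and library depth. Log2 values are on the log2(FPKM + 1) scale, which understates the change of genes with low levels.

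An enriched environment is housing with added space, objects and company, and in adult rodents it is a classic inducer of activity-dependent transcription and synaptic growth. Near birth the cortex is completing its layers of projection neurons, while the hippocampus is still producing dentate granule neurons from a germinal zone at the cortical hem, next to the choroid plexus and the meninges. A tissue contrast asks whether the 2 regions answered the housing of the mother in the same way, gene by gene.

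The libraries carried differences besides tissue and housing that touch every result below. Cortex SH replicate 3 had the highest summed FPKM, 511438, with the other 11 libraries at 348413 to 395825. Whole reads recovered from the steps of the FPKM values numbered 16024004 to 21957593 per library, a depth known only up to a common factor within each tissue. The length by which the authors divided each gene can be read back from these reads. Against that length, the deviation of a library from the mean of its tissue had a Spearman correlation across genes of 0.435 to 0.624 in the 3 cortex EE libraries, 0.212 and 0.288 in cortex SH replicates 1 and 2, and -0.744 in cortex SH replicate 3. In hippocampus it was -0.471 in EE replicate 1 and -0.139 to 0.271 in the other 5 libraries. Deviations from a tissue mean balance out, so an extreme library shifts the values of the others in its tissue. A housing difference that follows length is also part of these values. Hippocampus EE replicate 3 and SH replicate 2 carried Xist, at 81.1 and 70.8 FPKM, and nearly no Y-linked RNA, while the other 10 libraries were the reverse. Markers of choroid plexus summed to 5280 and 10804 FPKM in hippocampus EE replicates 1 and 2 and to 17423 in SH replicate 1, against 95.2 to 240 in the other 3 hippocampal libraries and 42.7 to 325 in cortex. Markers of each tissue were checked. Prox1, a dentate granule neuron factor, was measured at 5.67 to 21.5 FPKM in the hippocampal libraries and 1.57 to 3.08 in cortex. Rorb, a factor of cortical layer neurons, was measured at 1.25 to 2.07 FPKM in cortex and 0.58 to 0.909 in hippocampus, and Cux2, a factor of upper cortical layers, at 5.16 to 9.03 in cortex and, overlapping, 4.78 to 9.93 in hippocampus.

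No gene passed the test of the tissue contrast. Of 13158 genes, 0 reached an adjusted p of 0.05 (limma, Benjamini-Hochberg over all genes tested, two-sided), a percent called of 0.0, and the smallest adjusted p was 0.495. Unadjusted p-values under 0.05 were found for 990 genes (7.52%), of which 709 (5.39%) had a positive and 281 (2.14%) a negative contrast. The same fit made calls on simulated data of this size. It called 42% of 100 genes carrying a simulated tissue contrast of 1 on the log2 scale and 94% of 100 genes carrying 2, with 10 other genes called. Changes of 1 log2 unit or less could therefore be missed here. The simulated spread was independent between genes and libraries, without the shared length trends above, so the rates in these data may differ. Without cortex SH replicate 3, 0 genes passed, the smallest adjusted p was 0.737, and 876 genes (6.66%) had an unadjusted p under 0.05, 604 positive (4.59%) and 272 negative (2.07%). Fitted to the recovered reads with limma-voom, the contrast had 0 genes passing and 953 at an unadjusted p under 0.05, and 807 when that library was left out.

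The housing difference was more widely spread across genes in cortex than in hippocampus, and that width rested on 1 library. Across genes, the SD of the log2 housing difference was 0.31 in cortex and 0.17 in hippocampus, and the cortex value was 0.17 without SH replicate 3. At an unadjusted p under 0.05 the cortex difference held 2275 genes (17.3%) and the hippocampus difference 275 (2.09%). Both counts rest on 1 spread per gene over the 12 libraries, so cortex SH replicate 3 also enters the hippocampus test. For Apc, as an example, the SE of the hippocampus difference was 0.32 with that library and 0.09 without it. The counts therefore do not compare the size of the 2 responses. The cortex and hippocampus differences had a Pearson correlation of -0.23 across the 13158 genes, which are not independent replicates, and their signs were opposite in 60.4% of genes. The correlation was 0.05 and the signs were opposite in 50.1% when cortex SH replicate 3 was left out. In the plot of both housing differences, the elongated cloud along the cortex axis is seen in the panel of 12 libraries.

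**Figure D1:**
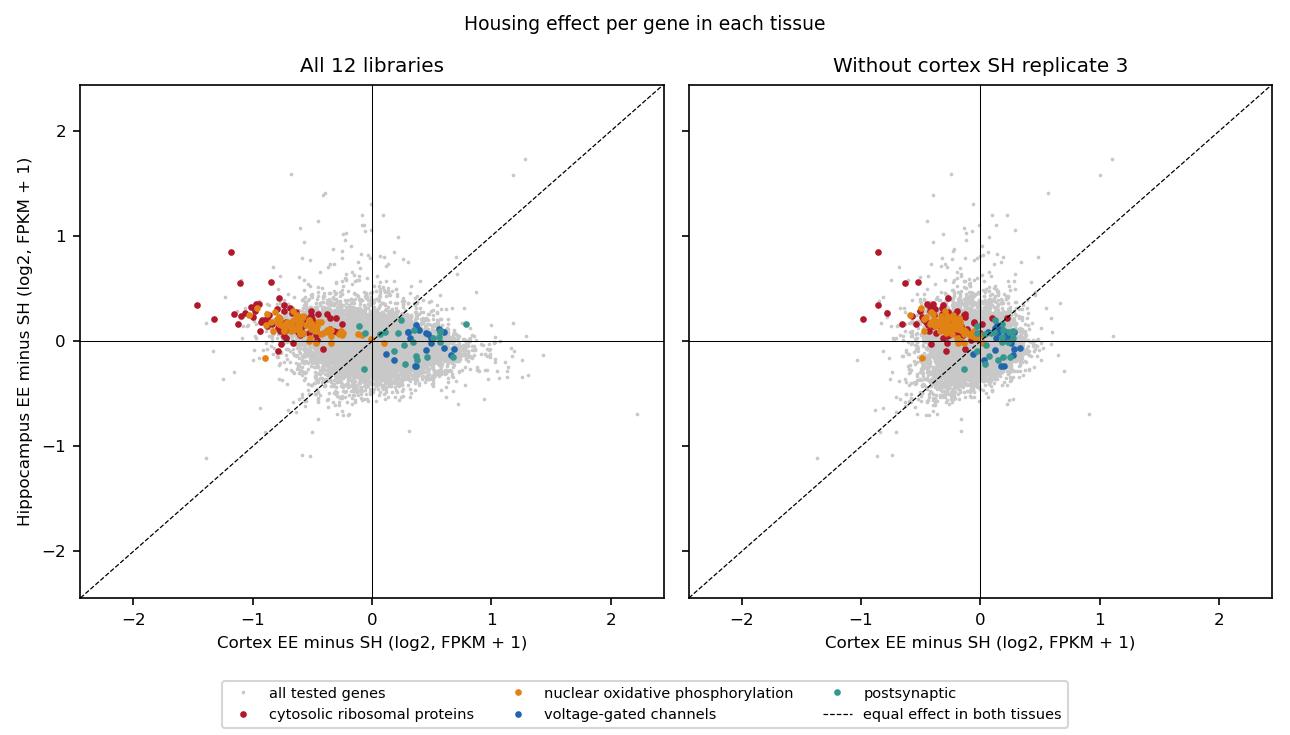
Housing difference per gene, with cortex EE minus SH on the horizontal axis and hippocampus EE minus SH on the vertical axis, both in log2(FPKM + 1), for 13158 tested genes. The cloud is wider along the cortex axis with all 12 libraries (SD 0.31) than without cortex SH replicate 3 (SD 0.17), and nearly all ribosomal and oxidative phosphorylation genes (red and orange) lie left of the dashed line of equal differences in both panels.

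Genes with complete separation of libraries in opposite directions were few. In 105 genes (0.798%) all 3 cortex EE libraries lay below all 3 cortex SH libraries while all 3 hippocampus EE libraries lay above all 3 hippocampus SH libraries. The mirror pattern, cortex EE above and hippocampus EE below, held for 58 genes (0.441%). For comparison, EE lay above SH in both tissues for 20 genes (0.152%) and below SH in both tissues for 133 (1.01%).

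Sequences just before the start of 4 genes described below, picked as examples, are shown first, because ribosomal protein genes often hold 1 promoter motif. Each is the 100 bases just before the more upstream of the RefSeq and GENCODE starts, 5′ to 3′ on the gene's strand (RefSeq table, GRCm38.p6). For Rps6 and Uqcr11 that is the GENCODE start, 45 and 9 bases before the RefSeq start. In each, capitals mark CGGAAG or its reverse complement CTTCCG, the core bound by ETS-family factors such as GABP. Rps6, Uqcr11 and Slirp had positive contrasts and Usp34, a long gene, a negative one.
Rps6 chr4:86857413-86857512 (minus strand): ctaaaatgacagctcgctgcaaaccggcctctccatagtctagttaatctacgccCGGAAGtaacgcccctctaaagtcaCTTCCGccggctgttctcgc
Uqcr11 chr10:80406831-80406930 (minus strand): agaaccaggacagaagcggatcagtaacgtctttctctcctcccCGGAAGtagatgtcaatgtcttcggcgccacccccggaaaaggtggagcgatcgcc
Slirp chr12:87443796-87443895 (plus strand): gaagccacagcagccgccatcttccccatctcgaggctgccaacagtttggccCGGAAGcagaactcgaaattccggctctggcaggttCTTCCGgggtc
Usp34 chr11:23306795-23306894 (plus strand): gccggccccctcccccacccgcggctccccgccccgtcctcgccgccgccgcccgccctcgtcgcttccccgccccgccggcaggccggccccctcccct
Over windows from 250 bases before to 50 after the start, either strand, the motif was found in 40 of 58 ribosomal protein genes with an entry (69.0%), 26 of 62 genes of oxidative phosphorylation (41.9%) and 9 of 15 S phase genes (60.0%). It was found in 0 of 13 GABA and glycine receptor genes and in 1 of 11 voltage-gated channel genes (9.09%), but in 3 of 11 glutamate receptor genes (27.3%) and 4 of 16 postsynaptic genes (25%). Its presence did not follow the sign of the contrast over all lists, since among lists with positive medians it was in 1 of 7 choroid plexus genes (14.3%), 2 of 12 microglial genes (16.7%) and 1 of 14 meningeal genes (7.14%). The motif was in any window of 18.8% of all 27025 genes with a promoter entry, and of 34.1% of the 9955 tested genes among them. A match describes these letters and shows no binding.

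The 10 genes with a positive contrast and the smallest p, leaving out predicted names, included Tmem86b, Tradd, Prss36, Supt4b, Rps6, C8g, Tnnc1, C1qtnf2 and Fah. Each of the 10 had an adjusted p of 0.495 in limma, so none passed, and their tissue contrasts ran from 0.69 to 1.53 on the log2 scale. All 10 had cortex EE below cortex SH without overlap of libraries, a pattern of 18.3% of tested genes, and 5 of them had hippocampus EE above SH without overlap, against 2.58%. These genes were chosen by the same test, so the counts only describe them. By length, Prss36 stood at percentile 51.1 of tested genes and the other 9 at percentiles 0.2 to 15.8.

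Rps6 (chr4:86854660-86857412) encodes a protein of the small ribosomal subunit that is phosphorylated when growth signalling is active. Its level was 142, 172 and 182 FPKM in cortex EE, 371, 283 and 663 in cortex SH, 250, 164 and 224 in hippocampus EE and 230, 145 and 180 in hippocampus SH. In cortex every SH library lay above every EE library, with SH replicate 3 far the highest, while the hippocampal groups overlapped. The tissue contrast was 1.53 ± 0.40 (SE), with a 95% interval of 0.65 to 2.40, and 1.18 ± 0.30 (SE) without cortex SH replicate 3. Ribosomal protein genes have many processed pseudogenes in the mouse, and how the authors assigned reads shared with them is not given in the sources used here.

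Supt4b, which GENCODE annotates as a processed pseudogene of the elongation factor gene Supt4a, read 5.16, 6.37 and 5 FPKM in cortex EE, 8.21, 7.39 and 16.7 in cortex SH, 12, 7.62 and 9.12 in hippocampus EE and 5.19, 5.76 and 6.44 in hippocampus SH. EE was lower than SH in cortex and higher in hippocampus, in both cases without overlap, with a contrast of 1.40 ± 0.35 (SE), but reads of the parent gene could have been assigned to this copy.

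Tradd (chr8:105258286-105264609) encodes the adaptor that links the tumour necrosis factor receptor to cell death and NF-kappaB signalling. The libraries read 4.54, 4.23 and 4.68 FPKM in cortex EE, 5.91, 5.48 and 6.7 in cortex SH, 5.13, 4.65 and 5.69 in hippocampus EE and 3.38, 4.22 and 3.74 in hippocampus SH. The cortex SH values lay close together, replicate 3 among them, so the contrast depended little on that library: 0.72 ± 0.17 (SE) with it and 0.65 ± 0.16 (SE) without. With each library's trend on length, GC content and mean level removed, it was 0.23. Tmem86b, an enzyme that breaks down lysoplasmalogens, had a like pattern, at 1.84, 2.05 and 1.95 FPKM in cortex EE, 2.5, 2.37 and 2.61 in cortex SH, 4.06, 4.4 and 3.97 in hippocampus EE and 2.63, 3.22 and 2.49 in hippocampus SH, with a contrast of 0.69 ± 0.17 (SE) and of 0.15 after that removal.

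Prss36, a serine protease gene of middle length, kept its size under the trend removal. It measured 1.18, 1.77 and 1.58 FPKM in cortex EE, 2.66, 2.52 and 3.44 in cortex SH, 3.31, 2.61 and 3.09 in hippocampus EE and 2.3, 2.71 and 2.52 in hippocampus SH, and its contrast was 0.81 ± 0.20 (SE), then 0.71 ± 0.18 (SE) without cortex SH replicate 3 and 0.69 ± 0.21 (SE) with the trend removed. In hippocampus the groups overlapped, and the value came mostly from cortex, with differences of 0.19 in hippocampus and -0.63 in cortex. Fah, the last enzyme of tyrosine breakdown, measured 5.78, 6.77 and 6.94 FPKM in cortex EE, 8.97, 9.03 and 8.9 in cortex SH, 8.9, 7.79 and 8.14 in hippocampus EE and 7.22, 7.05 and 4.6 in hippocampus SH. Its cortex SH libraries were nearly equal, all 3 above the EE libraries, and hippocampus separated the other way, with a contrast of 0.78 ± 0.21 (SE). C1qtnf2, a secreted relative of complement C1q, had a contrast of 1.08 ± 0.29 (SE), C8g, the gamma chain of complement C8, one of 0.79 ± 0.21 (SE), and Tnnc1, the calcium-binding troponin of heart and slow muscle, one of 1.33 ± 0.35 (SE). With the trend removed these were 0.47, 0.28 and 0.74. C8g and Tnnc1 had levels of at most 1.41 and 3.12 FPKM in any library.

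**Figure D2:**
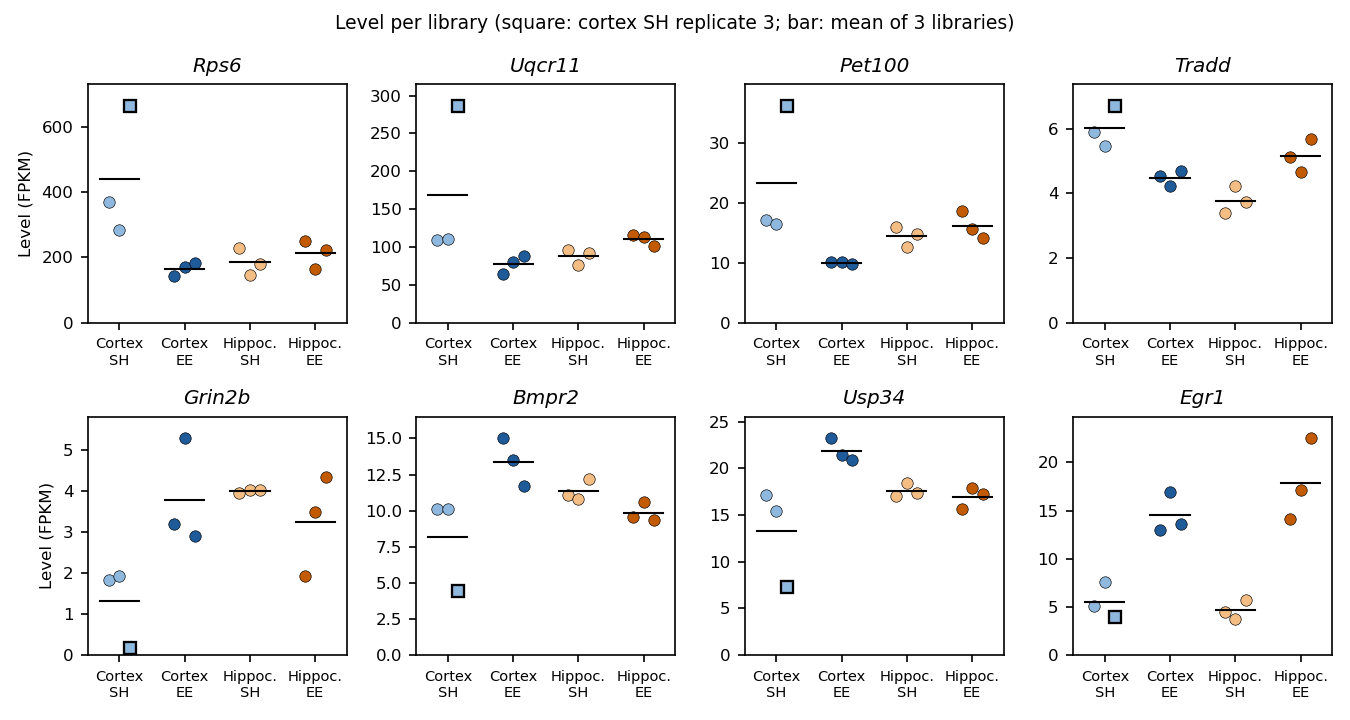
Level of 8 genes in FPKM (vertical axes from 0) in each library of the 4 groups, with points for libraries, bars for group means and a square for cortex SH replicate 3. Rps6, Uqcr11, Pet100 and Tradd show cortex SH above cortex EE, Grin2b, Bmpr2 and Usp34 the reverse with the square lowest, and Egr1 shows EE above SH in both tissues.

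Ranked without cortex SH replicate 3, the further genes with positive contrasts were Pet100, Dynlt1c, Fam96b, Uqcr11 and Slirp. Pet100 (chr8:3621548-3625848), an assembly factor of cytochrome c oxidase, measured 10.1, 10.2 and 9.79 FPKM in cortex EE, 17.2, 16.5 and 36.1 in cortex SH, 18.6, 15.6 and 14.2 in hippocampus EE and 16, 12.6 and 14.8 in hippocampus SH. The 3 cortex EE libraries were nearly equal and below every SH library, and the hippocampal groups overlapped. Its contrast was 1.19 ± 0.33 (SE) over 12 libraries, 0.84 ± 0.17 (SE) without that library and 0.82 ± 0.20 (SE) with the trend removed. Uqcr11, a small subunit of complex III, measured 64.8, 80.8 and 88 FPKM in cortex EE, 109, 110 and 286 in cortex SH, 116, 113 and 102 in hippocampus EE and 96.4, 76.9 and 91.5 in hippocampus SH. It separated in both tissues, down in cortex EE and up in hippocampus EE, with a contrast of 1.28 ± 0.42 (SE) that was 0.82 ± 0.18 (SE) without SH replicate 3. Slirp, which stabilises mitochondrial messenger RNA, followed the same pattern, at 66.4, 63.2 and 69.6 FPKM in cortex EE, 86.2, 85.6 and 159 in cortex SH, 102, 77.5 and 85.9 in hippocampus EE and 76.9, 67.2 and 67.5 in hippocampus SH, with contrasts of 0.98 ± 0.29 (SE) and 0.68 ± 0.15 (SE).

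Dynlt1c, a dynein light chain gene with near-identical neighbours, was the exception among these 5, since its difference lay in hippocampus. It measured 53.1, 55.5 and 65.7 FPKM in cortex EE, 67.7, 62.6 and 50.4 in cortex SH, 77.7, 74.4 and 77 in hippocampus EE and 58.1, 56.2 and 51.1 in hippocampus SH. Cortex groups overlapped, and hippocampus EE lay above SH by 0.46 on the log2 scale. The contrast over 12 libraries, 0.51 ± 0.18 (SE), was 0.01 with the trend removed. Without cortex SH replicate 3 it was 0.63 ± 0.13 (SE), and 0.36 ± 0.13 (SE) with the trend removed as well. Fam96b, a factor that delivers iron-sulfur clusters to proteins, went from 0.67 ± 0.20 (SE) over 12 libraries to 0.05 with the trend removed.

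The 10 genes with a negative contrast and the smallest p were Grin2b, Pcdhga8, B4galt6, Yy1, Taok1, Nucks1, Bmpr2, Kcnq5, Tmem196 and Trpc5, with contrasts of -1.41 to -0.46 and adjusted p of 0.495 in limma. In 9 of them cortex EE lay above cortex SH without overlap, against 11.0% of tested genes, Kcnq5 being the exception. In 6, hippocampus EE lay below SH without overlap, against 7.36%. Cortex SH replicate 3 was the lowest cortical library for each of the 10.

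Grin2b (chr6:135713233-136173511) encodes the NMDA receptor subunit that predominates before birth. Its level was 3.18, 5.27 and 2.9 FPKM in cortex EE, 1.82, 1.92 and 0.18 in cortex SH, 1.93, 3.49 and 4.32 in hippocampus EE and 3.94, 4.02 and 4.02 in hippocampus SH. Cortex SH replicate 3 was far below the other SH libraries, all cortex SH libraries lay below all EE libraries, and the hippocampal groups overlapped. The contrast was -1.41 ± 0.47 (SE), with a 95% interval of -2.43 to -0.39, -0.98 ± 0.33 (SE) without cortex SH replicate 3 and -1.09 ± 0.34 (SE) with the trend removed.

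Bmpr2, the type II receptor for bone morphogenetic proteins, measured 15, 13.5 and 11.7 FPKM in cortex EE, 10.1, 10.1 and 4.42 in cortex SH, 9.59, 10.6 and 9.36 in hippocampus EE and 11.1, 10.8 and 12.2 in hippocampus SH. EE lay above SH in cortex and below it in hippocampus, both without overlap, with a contrast of -0.90 ± 0.32 (SE) and of -0.56 ± 0.15 (SE) without cortex SH replicate 3. Yy1, a zinc finger factor that bridges enhancers and promoters, showed the same double separation at a small size: 25.2, 26.3 and 24.2 FPKM in cortex EE, 21.9, 21.6 and 16.4 in cortex SH, 22.1, 21.8 and 21.8 in hippocampus EE and 22.9, 24.1 and 25 in hippocampus SH. Its contrast was -0.46 ± 0.16 (SE), -0.33 ± 0.10 (SE) without SH replicate 3 and -0.52 ± 0.15 (SE) with the trend removed, so it did not shrink under the latter. Taok1, a kinase that acts on microtubules and MAP kinases, measured 11.5, 10.6 and 9.53 FPKM in cortex EE, 8.66, 8.52 and 4.17 in cortex SH, 9.13, 10.9 and 10.1 in hippocampus EE and 11.3, 11.7 and 14.1 in hippocampus SH, with a contrast of -0.83 ± 0.30 (SE) that was -0.53 without SH replicate 3 and -0.21 with the trend removed.

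Among membrane proteins, Kcnq5, a potassium channel of the M-current, measured 3.87, 4.24 and 3.4 FPKM in cortex EE, 3.09, 3.41 and 1.75 in cortex SH, 1.52, 1.86 and 1.64 in hippocampus EE and 2.13, 2.43 and 2.15 in hippocampus SH, with hippocampus EE below SH without overlap and overlapping cortex groups. Trpc5, a cation channel of growth cones, measured 4.54, 4.08 and 4.09 FPKM in cortex EE, 2.99, 2.69 and 1.17 in cortex SH, 1.59, 1.84 and 1.98 in hippocampus EE and 2.24, 1.47 and 2.33 in hippocampus SH, with separation in cortex only. Their contrasts were -0.67 ± 0.24 (SE) and -0.82 ± 0.30 (SE), or -0.46 and -0.54 without cortex SH replicate 3. Tmem196 had a contrast of -0.54 ± 0.20 (SE), and B4galt6, which makes lactosylceramide, one of -0.64 ± 0.22 (SE). Pcdhga8, a clustered protocadherin that shares its last exons with the rest of its cluster, had one of -0.96 ± 0.33 (SE), or -0.61 without that library, and reads in those exons cannot be given to it alone. Nucks1, a nuclear DNA-binding protein, had one of -0.49 ± 0.17 (SE), and of -0.15 with the trend removed.

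Without cortex SH replicate 3, the further genes with negative contrasts included Apc, Usp34, Rev3l and Tnks, all long. Usp34 (chr11:23306895-23490560), a deubiquitinase, measured 23.2, 21.4 and 20.9 FPKM in cortex EE, 17.1, 15.4 and 7.24 in cortex SH, 15.6, 17.9 and 17.2 in hippocampus EE and 17, 18.4 and 17.3 in hippocampus SH. Cortex EE lay above SH in every library, hippocampus overlapped, and the contrast was -0.81 ± 0.32 (SE), or -0.46 ± 0.12 (SE) without SH replicate 3. Apc and Tnks both act on beta-catenin turnover, Apc as a scaffold of its destruction complex and Tnks as the enzyme that marks axin for degradation. Their contrasts without SH replicate 3 were -0.51 ± 0.13 (SE) and -0.68 ± 0.19 (SE), and both separated in opposite directions in the 2 tissues. Rev3l, the catalytic subunit of DNA polymerase zeta, had -0.56 ± 0.16 (SE).

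Gene length ordered the contrast over the whole table. From the shortest to the longest of 10 length deciles, about 1316 genes each, the median tissue contrast went from 0.56 through 0.02 in decile 5 to -0.41. In the shortest decile 351 genes had a positive and 4 a negative contrast at an unadjusted p under 0.05, and in the longest decile 0 and 125. With all 12 libraries the slope came mostly from cortex, where the median housing difference went from -0.45 to 0.30, against 0.11 to -0.09 in hippocampus. Leaving out cortex SH replicate 3 gave a cortex difference of -0.20 to 0.07, so much of the cortex slope rested on that library. Without cortex SH replicate 3 the contrast still went from 0.31 to -0.18, and from 0.26 to -0.14 with hippocampus EE replicate 1 left out too. In the last case 465 genes (3.53%) had an unadjusted p under 0.05, 362 positive (2.75%) and 103 negative (0.783%). With each library's trend on length, GC content and mean level removed, the decile medians lay between -0.01 and 0.06, by construction, and 515 of 12952 genes (3.98%) had an unadjusted p under 0.05, 248 positive (1.91%) and 267 negative (2.06%). Trend removal with cortex SH replicate 3 left out gave 341 such genes (2.63%), 137 positive (1.06%) and 204 negative (1.58%). The share of length in each gene's contrast was not tested beyond these values.

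**Figure D3:**
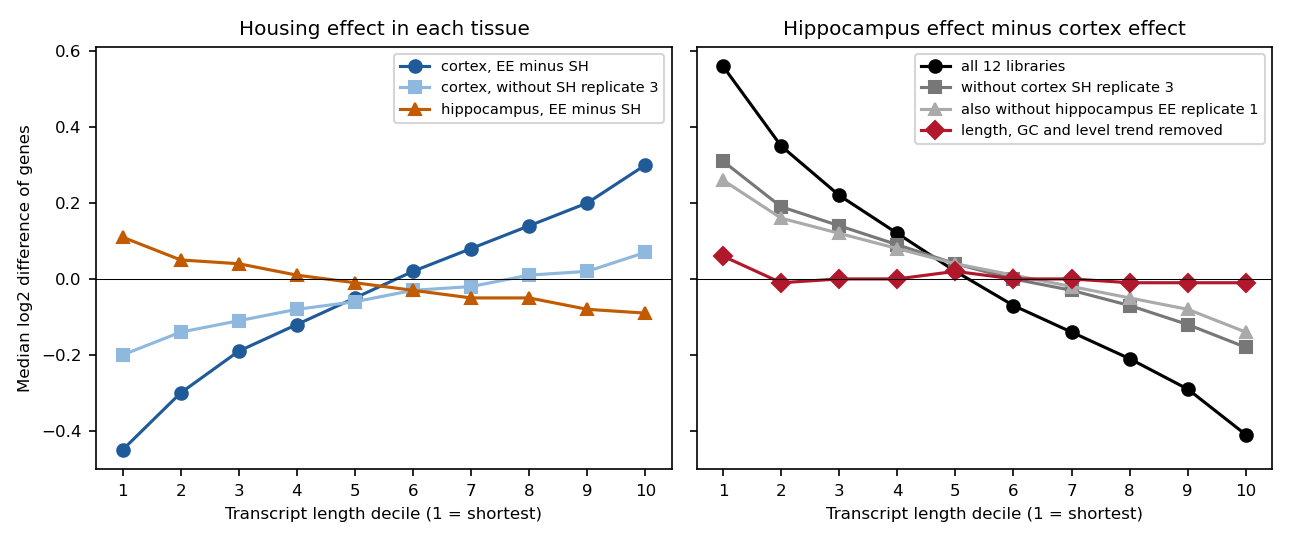
Median log2 difference (vertical axis) by decile of transcript length (horizontal axis, decile 1 shortest), for the housing difference within each tissue at left and for the tissue contrast at right. The contrast falls from 0.56 to -0.41 with all 12 libraries and from 0.31 to -0.18 without cortex SH replicate 3, and is near 0 throughout once each library's trend was removed.

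Cytosolic ribosomal proteins, the parts of the translating ribosome, had the highest median contrast among the lists with all 12 libraries, while choroid plexus genes did without cortex SH replicate 3, with the trend removed and under quantile normalization. All 79 were tested and all 79 had a positive value, against 49.5% of tested genes, with a median of 0.83 on the log2 scale against 0.00 for all genes. None passed, and 34 had an unadjusted p under 0.05 with a positive contrast, against 5.39% of all genes. The median difference was -0.69 in cortex and 0.18 in hippocampus. The mean log2 level of the list was 7.56, 7.69 and 7.85 in cortex EE, 8.03, 8.0 and 9.20 in cortex SH, 8.13, 7.78 and 7.91 in hippocampus EE, and 7.80, 7.57 and 7.87 in hippocampus SH. Cortex SH replicate 3 stood more than 1 log2 unit above every other library, the other cortex SH libraries lay just above cortex EE, and the hippocampal groups overlapped.

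Without cortex SH replicate 3 the ribosomal median was 0.46, with 78 of 79 positive against 55.2% of all genes. It was 0.28 with the trend removed, 0.36 under quantile normalization and 0.42 in the fit of all 16 libraries. With the trend removed and cortex SH replicate 3 left out, it was 0.14, with 55 of 79 positive. The median ribosomal gene stood at percentile 3.9 of length. In 58 of 79 genes cortex EE lay below SH without overlap (18.3% of all genes), in 9 hippocampus EE lay above SH (2.58%), and in 5 both held (0.798%). Rpl36, of the large subunit, had a contrast of 2.04 ± 0.59 (SE), but its hippocampus EE libraries were 39.6, 116 and 34.8 FPKM, so 1 library carried the hippocampal side.

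Nuclear-encoded subunits of oxidative phosphorylation, the respiratory complexes and ATP synthase, had values close to those of the ribosomal genes. Of 74 tested, 73 had a positive contrast, the median was 0.75, and 38 had an unadjusted p under 0.05 with a positive value (5.39% of all genes, of which 49.5% were positive in sign). None passed. The medians were -0.61 in cortex and 0.14 in hippocampus, 58 members had cortex EE below SH without overlap (18.3% of all genes), 5 had hippocampus EE above SH (2.58%), and 4 had both (0.798%). Without cortex SH replicate 3 the median was 0.39, and with the trend removed 0.21. With both steps together it was 0.10, with 52 of 74 members positive. Their median length percentile was 3.7. Ndufa2 and Ndufa3, both of complex I, had contrasts of 1.28 ± 0.42 (SE) and 1.02 ± 0.34 (SE), or 0.84 ± 0.21 (SE) and 0.70 ± 0.21 (SE) without SH replicate 3. Ndufa2 measured 56.6, 75.7 and 70 FPKM in cortex EE, 99.6, 102 and 253 in cortex SH, 110, 77.3 and 91.7 in hippocampus EE and 86.2, 68.5 and 77.8 in hippocampus SH, a pattern in which cortex SH replicate 3 was far above each other cortex library. The 13 transcripts of the mitochondrial genome, the partners of these subunits, had a median contrast of 0.06 with 8 positive. It was 0.16 with 10 positive without cortex SH replicate 3, -0.34 under quantile normalization and -0.48 with the trend removed. With the trend removed and that library left out it was -0.16.

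Voltage-gated ion channels, which shape excitability, lay at the other end. All 20 tested members had a negative contrast, with a median of -0.42, and 2 had an unadjusted p under 0.05 in that direction, against 2.14% of all genes. Cortex EE lay above SH without overlap in 13 (11.0% of all genes). The median was 0.42 in cortex and 0.03 in hippocampus. The mean log2 level was 2.66, 2.63 and 2.61 in cortex EE, 2.43, 2.50 and 1.70 in cortex SH, 2.47, 2.54 and 2.55 in hippocampus EE and 2.39, 2.73 and 2.47 in hippocampus SH. Cortex SH replicate 3 was the lowest library, and the hippocampal groups overlapped. Without it the median was -0.18, and with the trend removed -0.11, with 5 of 20 positive against 50.4% of all genes. With the trend removed and that library left out, the median was -0.05, with 7 of 20 positive. The median length percentile was 94.7.

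Synaptic genes had the same sign at smaller or equal size. The medians were -0.41 for 22 postsynaptic scaffold genes (3 positive), -0.41 for 17 GABA and glycine receptor subunits (1 positive), -0.31 for 19 glutamate receptor subunits (1 positive) and -0.21 for 27 presynaptic genes (7 positive). Without cortex SH replicate 3 they were -0.13, -0.18, -0.10 and -0.05, and with the trend removed -0.15, -0.14, -0.09 and -0.14. With both steps together they were -0.04, -0.13, -0.0 and -0.02, with 9, 4, 9 and 12 members positive. No member passed. Nlgn3, a postsynaptic adhesion protein, measured 17.2, 19 and 16.8 FPKM in cortex EE, 14.9, 14.6 and 5.39 in cortex SH, 14.6, 15.7 and 14.6 in hippocampus EE and 15.1, 19.6 and 15.8 in hippocampus SH. Its contrast was -0.83 ± 0.39 (SE), -0.40 ± 0.15 (SE) without cortex SH replicate 3 and -0.73 ± 0.32 (SE) with the trend removed. Gabrb1, a beta subunit of the GABA-A receptor, had a contrast of -0.65 ± 0.30 (SE), and Bsn, a scaffold of the active zone, one of -0.76 ± 0.36 (SE), and these were -0.37 and -0.42 without that library and -0.13 and -0.39 with the trend removed.

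**Figure D4:**
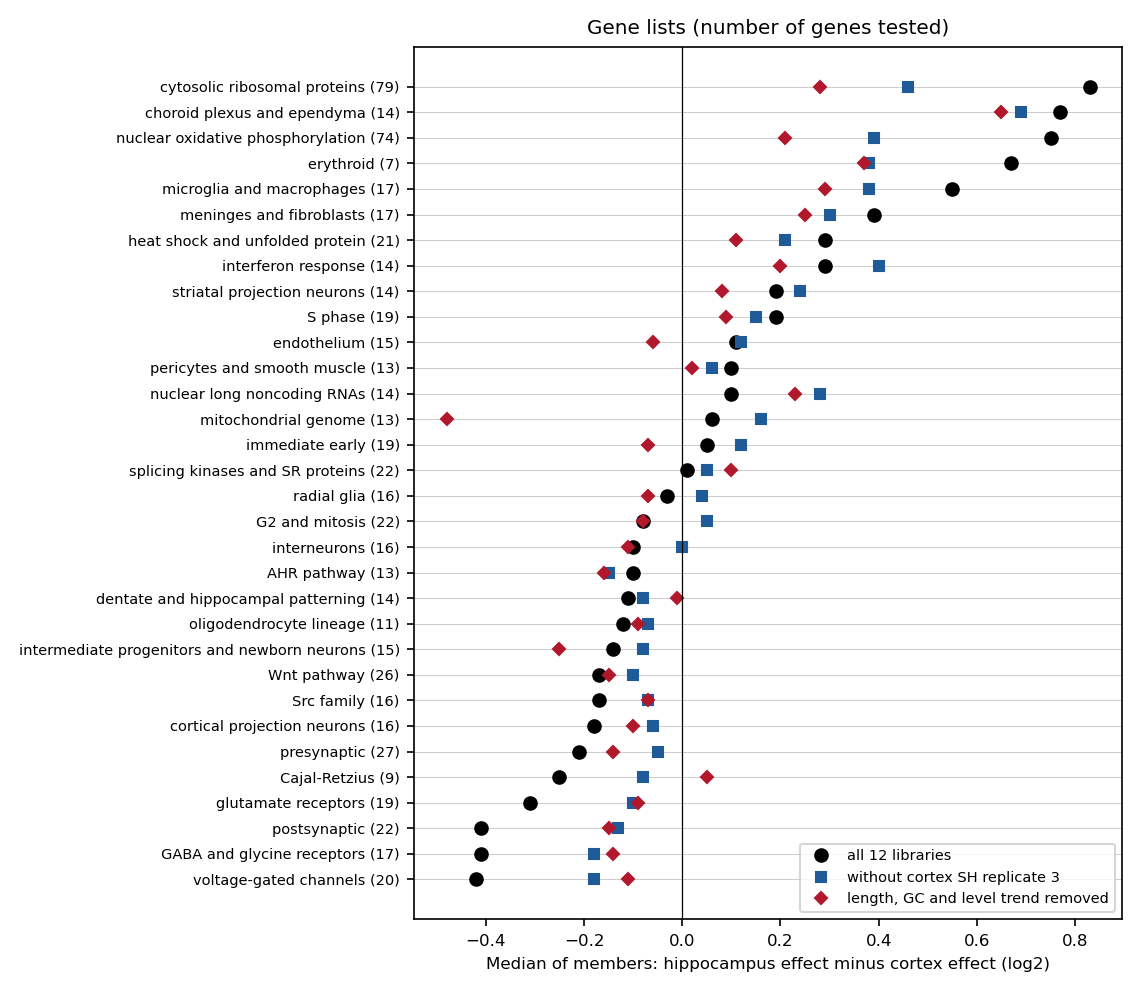
Median tissue contrast (horizontal axis, log2) of 32 gene lists, with the number of genes tested in brackets, for all 12 libraries (circles), without cortex SH replicate 3 (squares) and with each library's trend removed (diamonds). Ribosomal and oxidative phosphorylation genes are at 0.83 and 0.75 and voltage-gated channels at -0.42 with 12 libraries, and all 3 are nearer 0 in the other settings.

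Egr1 and Fos, immediate early transcription factors that neurons induce upon activity, had EE above SH in both tissues, and neither passed the test of the tissue contrast. Egr1 (chr18:34859823-34864984) measured 13, 16.9 and 13.6 FPKM in cortex EE, 5.04, 7.55 and 3.94 in cortex SH, 14.1, 17.1 and 22.5 in hippocampus EE and 4.51, 3.74 and 5.76 in hippocampus SH. The EE and SH libraries did not overlap in either tissue, a pattern of 0.152% of tested genes. Its housing difference was 1.28 in cortex and 1.73 in hippocampus (limma adjusted p = 0.0668), and its tissue contrast of 0.44 ± 0.31 (SE) had a 95% interval of -0.24 to 1.13. Fos measured 8.31, 7.96 and 5.53 FPKM in cortex EE, 2.98, 3.17 and 1.82 in cortex SH, 5.35, 6.53 and 6.97 in hippocampus EE and 2.29, 0.643 and 1.63 in hippocampus SH, again without overlap in either tissue, and its contrast was 0.40 ± 0.35 (SE), with an interval of -0.37 to 1.17. Both intervals include 0 and larger hippocampal differences. For Egr1 the contrast was 0.62 (-0.02 to 1.27) without cortex SH replicate 3 and 0.77 (0.13 to 1.42, limma adjusted p = 1.0) with hippocampus EE replicate 1 left out too, and for Fos it was 0.58 (-0.19 to 1.34) and 0.67 (-0.16 to 1.51). Equal responses were not shown.

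Among 19 immediate early genes tested, 11 had a positive contrast and the median was 0.05, or 0.12 without cortex SH replicate 3 and -0.07 with the trend removed. The list's mean log2 level was higher in all 3 hippocampus EE libraries, 3.25 to 3.43, than in hippocampus SH, 3.08 to 3.16, and overlapped in cortex, at 2.99 to 3.13 against 2.72 to 3.00. In 7 of the 19, hippocampus EE lay above SH without overlap (2.58% of all genes), and in 3 cortex EE did (11.0%). Arc, a synaptic immediate early gene, measured 1.24, 1.93 and 1.61 FPKM in cortex EE, 2.25, 2.12 and 2.27 in cortex SH, 1.45, 1.46 and 2.33 in hippocampus EE and 1.2, 1.34 and 1.38 in hippocampus SH. It was the list's only member at an unadjusted p under 0.05, against 7.52% of all genes. EE lay below SH in cortex and above it in hippocampus. The contrast of Arc was 0.55 ± 0.21 (SE), 0.54 ± 0.22 (SE) without cortex SH replicate 3 and 0.36 ± 0.24 (SE) with the trend removed.

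Mir124a-1hg (chr14:64587331-64593961), the primary transcript that gives rise to miR-124, a neuronal microRNA, had lower values in EE than in SH in both tissues. It measured 2.55, 2 and 2.9 FPKM in cortex EE, 8.23, 7.66 and 8.32 in cortex SH, 5.22, 7.32 and 5.11 in hippocampus EE and 10.1, 15.2 and 16.7 in hippocampus SH. EE and SH did not overlap in either tissue, as in 1.01% of tested genes. The difference was -1.39 in cortex (limma adjusted p = 0.105) and -1.11 in hippocampus, and the tissue contrast of 0.28 ± 0.26 (SE) had an interval of -0.30 to 0.85. Ahr, the aryl hydrocarbon receptor, and the kinase Src, which the series title names, had contrasts of -0.10 ± 0.17 (SE) and -0.17 ± 0.18 (SE), or -0.05 and -0.08 without cortex SH replicate 3. Ahr was at 0.768 to 1.41 FPKM in the 12 libraries. Of 13 AHR pathway genes 5 had a positive contrast, with a median of -0.10, and of 16 Src family and adaptor genes 5 did, with a median of -0.17. These medians were -0.15 and -0.07 without cortex SH replicate 3.

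Markers of choroid plexus and meninges varied widely between hippocampal libraries of the same housing. In bulk tissue, fewer cells of a type and less RNA per cell cannot be told apart. All 14 choroid plexus and ependyma genes had a positive contrast, with a median of 0.77 and 0 at an unadjusted p under 0.05. Ttr, the transthyretin that choroid plexus secretes, measured 4989, 10300 and 33.6 FPKM in hippocampus EE and 16656, 37.9 and 144 in hippocampus SH. High and low libraries occurred in both housings, and the median ran from -0.01 without hippocampus SH replicate 2 to 2.12 without SH replicate 1. Its values in cortex were 8.30 to 281.

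Meninges and fibroblast genes, of the membranes around the brain, followed the choroid plexus genes only in part. Among hippocampal libraries they summed highest in EE replicate 2 and SH replicate 1, at 418 and 494 FPKM. EE replicate 1, high in choroid plexus genes, was at 147, below EE replicate 3 and SH replicate 3 at 245 and 207. Of 17 meningeal genes tested, 15 had a positive contrast, with a median of 0.39. The median ran from -0.12 without hippocampus SH replicate 2 to 0.88 without SH replicate 1. Fmod, a collagen-binding proteoglycan, measured 16.8, 14 and 14.2 FPKM in cortex EE, 25.1, 17.3 and 20.5 in cortex SH, 4.4, 10.2 and 14.8 in hippocampus EE and 8.84, 1.16 and 3.2 in hippocampus SH, with a contrast of 1.58 ± 0.67 (SE). Microglia and macrophage genes had a median of 0.55, 15 of 17 positive, which was 0.38 without cortex SH replicate 3 and ran from 0.31 to 0.81 over the libraries left out. The lowest of the 12 libraries for this list was hippocampus SH replicate 2, with a summed level of 107 FPKM against 197 to 403 in the others. Tyrobp, the signalling adaptor of microglial receptors, measured 19.8, 19.1 and 19.8 FPKM in cortex EE, 25, 24.9 and 43.2 in cortex SH, 20.7, 26.5 and 23.7 in hippocampus EE and 27.7, 10.7 and 18.6 in hippocampus SH, and its contrast was 0.98 ± 0.40 (SE). The median microglial gene was at length percentile 9.9. Erythroid genes had a median of 0.67, all 7 positive, and Hba-a1, an alpha globin with a near-identical copy, measured 609, 561 and 626 FPKM in cortex EE, 817, 804 and 2029 in cortex SH, 970, 773 and 514 in hippocampus EE and 701, 623 and 430 in hippocampus SH. In that case the high library was cortex SH replicate 3, without which the list median was 0.38, and it was 0.37 with the trend removed. With both steps together the erythroid median was 0.07, with 5 of 7 members positive. The parts of length and of these cell types in the list values were not tested.

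**Figure D5:**
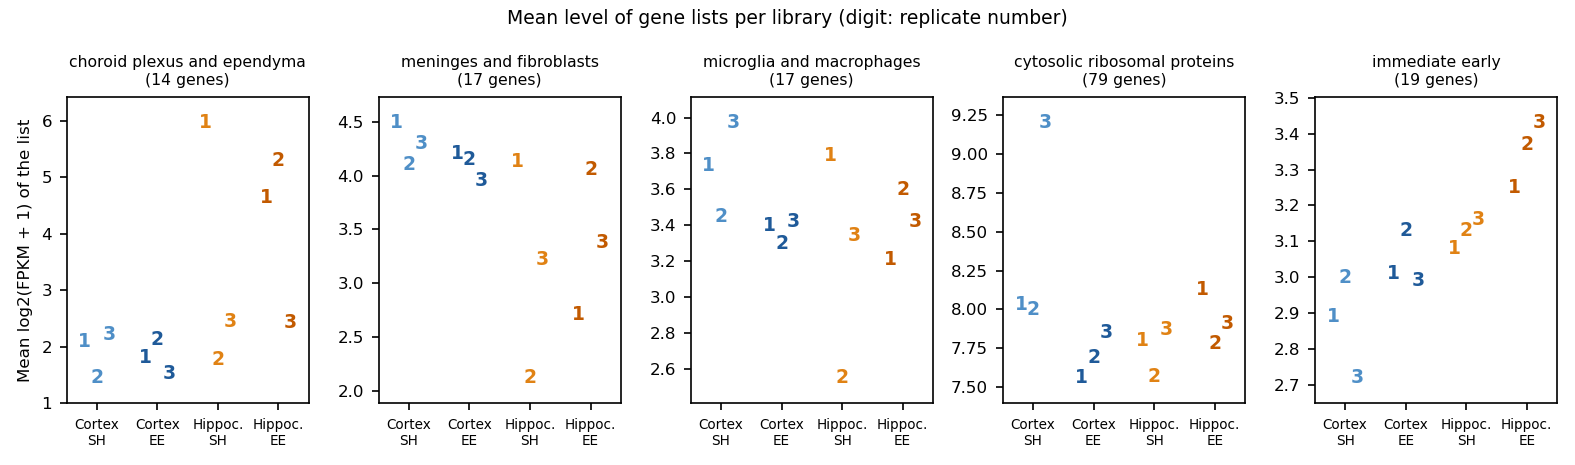
Mean log2(FPKM + 1) of 5 gene lists (vertical axes, each on its own range not starting at 0) in each of the 12 libraries, with digits for the replicate number. Choroid plexus genes are high in hippocampus SH replicate 1 and EE replicates 1 and 2, ribosomal genes are highest in cortex SH replicate 3 at 9.20, and immediate early genes lie higher in all hippocampus EE than in all hippocampus SH libraries.

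With all 12 libraries, the neuronal and progenitor lists below had medians nearer 0 than the channel and receptor lists. The median was -0.18 for 16 cortical projection neuron genes (2 positive), -0.11 for 14 genes of dentate and hippocampal patterning (3 positive), -0.14 for 15 genes of intermediate progenitors and newborn neurons (5 positive) and -0.03 for 16 radial glia genes (8 positive), or, without cortex SH replicate 3, -0.06 (6 positive), -0.08, -0.08 and 0.04. With the trend removed these 4 medians were -0.10, -0.01, -0.25 and -0.07, with 5, 7, 2 and 7 members positive. The progenitor and newborn neuron list was then further from 0 than the channel list, at -0.11. With both steps together the 4 medians were -0.05, -0.01, -0.15 and 0.05. Zbtb20, a factor that specifies hippocampal neurons, measured 2.24, 2.27 and 1.64 FPKM in cortex EE, 2.18, 1.7 and 0.632 in cortex SH, 10.6, 12.1 and 5.59 in hippocampus EE and 11.9, 14.4 and 12.8 in hippocampus SH. Its hippocampus EE libraries spread widely, replicate 3 lowest, and the contrast was -0.82 ± 0.39 (SE), -0.54 without cortex SH replicate 3 and -0.19 with the trend removed. Erbb4, the neuregulin receptor of interneurons, and Npy, an interneuron peptide, had contrasts of opposite sign, -0.86 ± 0.37 (SE) and 0.98 ± 0.43 (SE), and stood at length percentiles 99.5 and 1.7. Leaving out cortex SH replicate 3 gave -0.49 and 0.68, and removing the trend -0.32 and 0.36. Striatal projection neuron genes, which mark tissue below the cortex, had a median of 0.19 with 12 of 14 positive, or -0.03 without hippocampus SH replicate 2, and summed to 148 to 210 FPKM in cortex against 24.0 to 58.5 in hippocampus. S phase genes had a median of 0.19 with 14 of 19 positive, 0.15 without cortex SH replicate 3 and 0.09 with the trend removed. With both steps together the S phase median was 0.03. G2 and mitosis genes had a median of -0.08 with 8 of 22 positive, or 0.05 without cortex SH replicate 3.

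Of the stress and defence lists, heat shock and unfolded protein genes had a median of 0.29, with 16 of 21 positive, 0.21 without cortex SH replicate 3, 0.11 with the trend removed and 0.04, with 11 of 21 positive, under quantile normalization. Within it Calr and Manf, chaperones of the endoplasmic reticulum, separated upward in hippocampus EE and overlapped in cortex, with contrasts of 0.70 ± 0.26 (SE) and 0.55 ± 0.23 (SE), or 0.53 and 0.35 without that library. Calr measured 181, 154 and 193 FPKM in cortex EE, 172, 198 and 265 in cortex SH, 211, 231 and 213 in hippocampus EE and 203, 144 and 138 in hippocampus SH. In 6 of the 21 genes hippocampus EE lay above SH without overlap, against 2.58% of all genes. Interferon response genes had a median of 0.29 with 12 of 14 positive, and 0.40 without cortex SH replicate 3. Ifitm2, a membrane protein that blocks virus entry, had a contrast of 0.64 ± 0.25 (SE) that was 0.02 with the trend removed. In the Wnt pathway 9 of 26 were positive, with a median of -0.17, or -0.10 without cortex SH replicate 3. Its receptor Fzd3 measured 12.2, 10.3 and 9.8 FPKM in cortex EE, 8.71, 8.12 and 4.06 in cortex SH, 10.4, 12.4 and 13 in hippocampus EE and 14.8, 11.8 and 14.3 in hippocampus SH, with a contrast of -0.79 ± 0.30 (SE), or -0.50 without that library and -0.26 with the trend removed.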

How the data were processed

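Total RNA was harvested with Trizol and made into libraries with a NEBNext Ultra kit, per the labels' protocols. The authors deposited 1 table of gene symbols and FPKM values per library. Per the submitters' processing notes, the authors used StringTie 1.3.4d, HISAT2 2.0.4, cutadapt 1.9, DESeq2 and edgeR, with the build mm10. Their roles and the annotation are not given in the sources used here. Of the 14993 symbols, 96.9% matched GENCODE M21, 21 were turned into dates and are not named, and 1 listed 2 times was left out.

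Limma 3.58.1 in R 4.3.3 (lmFit, eBayes with trend, two-sided) was fitted to log2(FPKM + 1) without further scaling, over genes with a mean of at least 1 FPKM, with 4 group means and a Benjamini-Hochberg adjusted p of 0.05 as the threshold. FPKM removes length only if every library covers transcripts alike. Whole reads were recovered from the FPKM steps for 99.99% of cortex and 100.0% of hippocampus genes at a tolerance of 0.003 reads, for limma-voom with median-of-ratios library sizes. Trends were removed per library by splines of 4 degrees of freedom on length, GC content and mean level. They were fitted to deviations from the tissue mean, so a housing difference that follows these traits is removed too. The read recovery and the fit of the tissue contrast were each tested on simulated data. Unadjusted counts describe the table and call no gene.

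Named genes were the 10 positive and 10 negative contrasts of smallest p, 5 more each way without cortex SH replicate 3, up to 3 members of smallest p per described list, Egr1, Fos, Mir124a-1hg, Ahr and Src, and tissue and cell type markers. Some genes that these rules name are not reported here. The members and all 32 lists were chosen with earlier results of these data known. Promoters came from a RefSeq table (GRCm38.p6). Alternatives were other scalings, filters, pseudocounts, variance models, blocks, a term for fetal sex, all 16 libraries, and each library left out. Added after the data were seen were the joint omission of cortex SH replicate 3 and hippocampus EE replicate 1, and limma-voom or trend removal without cortex SH replicate 3.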

Additional observations from a re-analysis of the deposited data

How the results depend on the processing

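The tissue contrast called 0 genes in all 28 alternatives. The count at an unadjusted p under 0.05, 990 in the 12 libraries, was 343 without hippocampus EE replicate 1, 2315 and 2433 without cortex SH replicates 2 and 1, 515 with the trend removed, 341 with the trend removed and cortex SH replicate 3 left out, 465 with that library and hippocampus EE replicate 1 left out, and 89 with all 16 libraries. The hippocampus difference, with 0 genes passing, had 1 (Egr1) under median-of-ratios scaling, 2 (Egr1 and Fos) under quantile normalization, 1 (Egr1) with all 16 libraries, and 0 to 1 upon leaving out each library, the 1 being Egr1 without cortex SH replicate 2 or 3. The cortex difference, with 0, had 10 with all 16 libraries and 0 to 1 upon leaving out each library, the 1 being Mir124a-1hg without hippocampus SH replicate 1. The cause of these shifts was not tested.

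Of the contrasts of 126 named genes under the alternatives, 3473 values kept their sign and 13 reversed. No gene passed in any setting, so only a change of sign could be counted. The reversals were Fabp7 to -0.03 under quantile normalization, Hes5 to -0.09 and Olig1 to -0.03 with all 16 libraries, Ndnf to 0.05, Rsph1 to -0.03 and Ahr to 0.10 with the trend removed, Sox5 to 0.04, Calb2 to -0.10, Rsph1 to -0.10 and Ahr to 0.01 with the trend removed and cortex SH replicate 3 left out, and Sox5 to 0.00, Calb2 to -0.02 and Ahr to 0.00 with both libraries left out. Of the medians of the 32 lists under the alternatives, 846 moved by less than the SD of the list's mean level among libraries of a group, and 50 did not.

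Replicate numbers are shared by the 4 groups, but same-numbered libraries had correlations of their deviations from -0.545 to 0.41, and the Xist and Y-linked levels show that replicates 2 of SH and 3 of EE came from different fetuses in the 2 tissues. With a replicate block the contrast called 0 genes, with 1255 at an unadjusted p under 0.05, and with a replicate block within housing 0 and 1243. The median gene had 364 to 635 recovered reads per library, and genes with few reads are measured with less precision.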

Other observations

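In the lists not described above no gene passed the test of the tissue contrast (limma, adjusted p). Endothelial genes had a median of 0.11 with 8 of 15 positive, and -0.06 with the trend removed. Esam, an adhesion protein of endothelial junctions, had a contrast of 0.45 ± 0.17 (SE), with cortex EE at 9.13, 10 and 9.73 FPKM below cortex SH at 12, 13.5 and 14.3 without overlap. Pericyte and smooth muscle genes had a median of 0.10 with 7 of 13 positive, or 0.06 without cortex SH replicate 3, and Higd1b, a pericyte marker, had 0.77 ± 0.25 (SE) and 0.56 ± 0.17 (SE) without cortex SH replicate 3. Oligodendrocyte lineage genes had a median of -0.12 with 4 of 11 positive and interneuron genes of -0.10 with 7 of 16, or -0.07 and 0.00 without that library. Cajal-Retzius genes had -0.25 with 2 of 9 positive, -0.08 without cortex SH replicate 3, and 0.05 with 5 of 9 positive when the trend was removed. Reln, the signal that Cajal-Retzius cells secrete, measured 29.2, 28.5 and 27.1 FPKM in cortex EE, 22.7, 21.5 and 9.98 in cortex SH, 50.6, 58.9 and 36.7 in hippocampus EE and 40.6, 87.5 and 38.2 in hippocampus SH, and its contrast was -0.80 ± 0.47 (SE), or -0.44 without cortex SH replicate 3.

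Splicing kinases and SR proteins had a median of 0.01 with 11 of 22 positive, 0.10 with the trend removed and -0.12 with 5 of 22 positive under quantile normalization. Clk2, a kinase that phosphorylates SR proteins, measured 2.34, 2.60 and 2.97 FPKM in cortex EE and 3.53, 3.71 and 5.08 in cortex SH, without overlap, and was level in hippocampus, with a contrast of 0.48 ± 0.20 (SE) and 0.34 ± 0.15 (SE) without cortex SH replicate 3. Nuclear long noncoding RNAs had a median of 0.10 with 10 of 14 positive, or 0.28 without that library. Gas5, a snoRNA host transcript, had a contrast of 0.49 ± 0.21 (SE), which was 0.49 with the trend removed and 0.33 without cortex SH replicate 3. Birc5, a chromosome passenger protein of dividing cells, measured 2.59, 2.10 and 1.91 FPKM in cortex EE and 3.95, 3.58 and 3.92 in cortex SH, and its contrast was 0.56 ± 0.22 (SE) with all libraries, 0.55 without cortex SH replicate 3 and 0.62 with the trend removed.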
